A study of Mus musculus with 69 samples.

Results

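The insulin-like growth factor (IGF) and insulin signalling genes studied here were followed in cultured primary murine vascular cells exposed to obesity-associated stressors. The 10 genes were taken by their symbols out of the 56953 gene identifiers of the count tables. They comprised the ligand Igf1, the receptors Igf1r and Insr, the adaptor Irs1 and the 6 binding proteins Igfbp2, Igfbp3, Igfbp4, Igfbp5, Igfbp6 and Igfbp7. All 10 were detected and all 10 passed the filter on low counts in each cell type.

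IGF-1 and insulin bind related receptor tyrosine kinases, which pass the signal through insulin receptor substrates such as IRS1 to PI3 kinase and AKT. Most extracellular IGF-1 is held by IGF binding proteins, which lengthen its life in tissue and limit or deliver it to the receptor, and proteases release it again by cleaving them. In the vessel wall IGF-1 is known as a growth and survival factor of smooth muscle cells, and smooth muscle cells and fibroblasts secrete several of its binding proteins.

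RNA-Seq counts of 69 libraries from male C57BL/6 mice were used. They comprise 38 EC libraries and, of VSMC, 16 WT and 15 KO libraries. WT VSMC were primary aortic smooth muscle cells and EC were primary cells from the heart, selected with beads against the endothelial surface protein CD31. The sample titles label all EC libraries as WT. KO VSMC came from mice with a floxed Egfr gene and Cre under the SM22 promoter, which is active in smooth muscle, so that the EGF receptor is lost in cells that express SM22. Cells were kept in serum-free medium as Control, or received HG + FFA (20 mM glucose and 100 µM free fatty acids in the sample labels, or 100 µM each of oleate and palmitate in the study's methods), AII + NA (30 nM angiotensin II with 300 nM of a catecholamine, which is epinephrine in the sample labels and norepinephrine in the study's methods) or ALL of these together for 24 h. Libraries fall into 18 sets, and a set holds cells of 1 mouse at 1 passage that were stimulated in parallel. WT VSMC are sets 1 to 4, KO VSMC are sets 5 to 8 and EC are sets 9 to 18, where the last 2 sets share their mouse so that EC represent 9 mice. Not analysed here were ALL of KO VSMC set 5, Control of EC set 10 and AII + NA of EC set 15. The labels place VSMC and EC in different batches, so that cell type, organ and batch cannot be told apart.

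Total counts per library lay between 17166133 and 43240489. Levels are given in FPM, counts scaled to a common library size after TMM normalization. Egfr, the targeted gene, averaged between 246 and 430 FPM in the WT VSMC sets and between 0.959 and 1.84 FPM in KO VSMC sets 6, 7 and 8, but 36.5 FPM in KO VSMC set 5. The summed level of 10 endothelial markers such as Pecam1 and Cdh5 was 569 to 4730 FPM in 7 EC sets, but 87.3, 143 and 78.6 FPM in EC sets 9, 11 and 13, against 17 to 100.4 FPM in the VSMC sets. EC sets 9, 11 and 13 also held 866, 3302 and 3015 FPM of 8 smooth muscle markers and 1627, 3675 and 4278 FPM of 8 fibroblast markers. The medians over all EC sets were 659 and 1314 FPM. WT VSMC sets held 773 to 1304 FPM of the smooth muscle and 1834 to 4196 FPM of the fibroblast markers, so that the fibroblast markers summed higher there. The endothelial label of EC sets 9, 11 and 13 was not borne out by the endothelial markers, and the EC calls are also given without these 3 sets. EC sets 15 and 16 are labelled WT but came from animals that also gave KO VSMC sets 7 and 6. EC sets 15 and 16 held 9.31 and 2.61 FPM of Egfr. EC set 18, whose mouse gave no KO VSMC, held 12.6 FPM. EC sets 10, 12, 14 and 17 held 40.0, 32.4, 37.0 and 43.8 FPM of Egfr. EC sets 9, 11 and 13 held 133, 154 and 138 FPM. Whether the low Egfr of EC sets 15 and 16 stems from the knockout was not tested. In bulk libraries, fewer cells of a type and less RNA per cell cannot be told apart.

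The promoters of the 3 genes that changed in WT VSMC are shown here because Igf1 and Igfbp6 fell while Igfbp2 rose. Each line holds the 250 bases before the start of the canonical transcript in GRCm39 on the plus strand, at chr10:87694659-87694908 for Igf1, chr1:72863399-72863648 for Igfbp2 and chr15:102052447-102052696 for Igfbp6. Capitals mark the letters of any of 8 motifs, searched on both strands.
Igf1: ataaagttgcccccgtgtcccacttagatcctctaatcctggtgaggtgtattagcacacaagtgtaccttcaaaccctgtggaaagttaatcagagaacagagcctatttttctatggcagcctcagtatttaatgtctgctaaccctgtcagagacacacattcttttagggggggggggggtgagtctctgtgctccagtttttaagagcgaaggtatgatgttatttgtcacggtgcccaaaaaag
Igfbp2: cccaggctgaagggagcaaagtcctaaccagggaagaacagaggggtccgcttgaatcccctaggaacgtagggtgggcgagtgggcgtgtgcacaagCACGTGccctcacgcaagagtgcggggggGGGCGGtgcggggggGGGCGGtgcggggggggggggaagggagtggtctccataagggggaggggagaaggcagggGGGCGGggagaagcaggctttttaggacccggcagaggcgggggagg
Igfbp6: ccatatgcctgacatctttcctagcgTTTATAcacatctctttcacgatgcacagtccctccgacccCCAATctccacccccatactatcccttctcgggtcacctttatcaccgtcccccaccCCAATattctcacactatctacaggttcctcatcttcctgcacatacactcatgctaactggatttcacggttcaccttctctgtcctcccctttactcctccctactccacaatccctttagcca

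The 3 windows shared no motif. The Igfbp2 window held the GC box GGGCGG 3 times, found in 36.3% of 21770 protein-coding promoters of the same length, and the E-box CACGTG once, found in 6.26%. The Igfbp6 window held CCAAT at 2 positions, a motif in 36.5% of promoters, and TATAAA on the minus strand, in 11.9%. The Igf1 window held none of the 8. The FOXO motif TGTTTAC (2.72% of promoters), the CRE TGACGTCA (1.69%), the AP-1 motif TGANTCA (6.17%) and the CArG box (1.40%) occurred in none of the 10 members' windows. Igf1 has further starts that these windows do not cover. By a second annotation, RefSeq, the end of the Igfbp2 window lay within a promoter of its gene. The ends of the Igf1 and Igfbp6 windows did not. GC content was 68.8% for Igfbp2 and 45.6% for Igf1, with a median of 53.2% over all promoters.

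Per kb of exon, binding protein RNA dominated the family in Control cells. In WT VSMC the highest mean levels were those of Igfbp6, which prefers IGF-2 as its ligand, at 442 ± 261 FPM per kb (SD, n = 4), Igfbp7, a distant relative that binds IGF-1 weakly, at 367 ± 84.5 and Igfbp4, regarded as an inhibitor of IGF action, at 220 ± 176. Igfbp2 at 32.2 ± 19.0, Igfbp5 at 28.3 ± 40.5 and Igfbp3 at 16.7 ± 6.89 FPM per kb followed, and neighbours in this order overlapped except Igfbp4 and Igfbp2, whose ranges of 120 to 483 and 7.91 to 47.5 FPM per kb were apart. Igf1r reached 7.56 ± 1.29, Insr 3.19 ± 1.05, Irs1 1.41 ± 0.560 and Igf1 1.07 ± 0.273 FPM per kb. The receptors were thus both higher than the ligand in each WT VSMC Control library, whereas Irs1 and Igf1 overlapped.

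KO VSMC and EC differed from this order in several genes. In KO VSMC the mean of Igfbp2 was 361 ± 618 FPM per kb (n = 4) and stood first, carried by 1 set. In EC, with sets 17 and 18 averaged as 1 animal, Igfbp7 was first at 299 ± 193 FPM per kb (n = 8) and Igfbp5 last at 0.974 ± 0.643. By mean, Igfbp3 was second in EC at 55.7 ± 63.4 and Igfbp6 only 7th at 9.46 ± 7.72 FPM per kb. Igfbp7 made up 71.0% ± 10.4 of the 6 binding proteins in EC per kb, against 36.7% ± 12.8 in WT VSMC and 36.2% ± 20.6 in KO VSMC. Igfbp6 made up 3.22% ± 3.5 in EC, 36.6% ± 15.7 in WT VSMC and 24.0% ± 11.9 in KO VSMC. These EC levels, ranks and shares include sets 9, 11 and 13, whose endothelial markers were low, and are not given without them. The share of Igfbp7 in EC ranged from 57.3% in set 13 to 90.8% in set 11. Its level was highest in sets 11 and 13, at 607 and 507 FPM per kb, but was 162 in set 9.

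**Figure D1:**
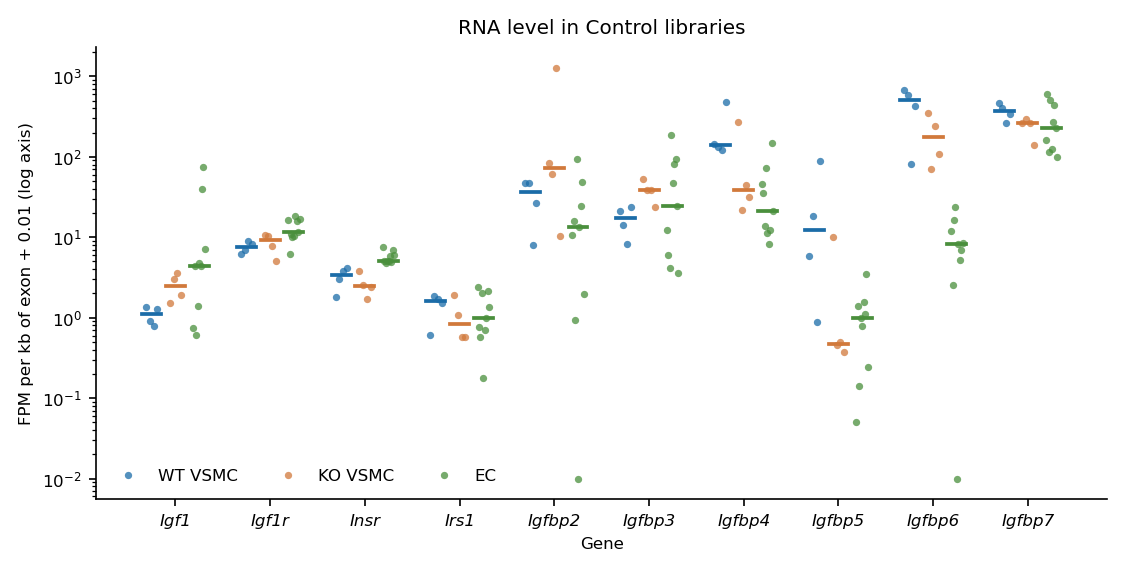
RNA level of the 10 genes in Control libraries, in FPM per kb of exon plus 0.01 on a log axis. Each point is a library (4 WT VSMC, 4 KO VSMC, 9 EC) and bars are medians over libraries. Igfbp4, Igfbp5 and Igfbp6 lie lower in EC than in WT VSMC, while Igf1r and Insr keep narrow ranges.

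Against WT VSMC, Control EC held less RNA of 3 binding proteins and more of the insulin receptor. Of the 10 genes, 1 was higher and 3 were lower (edgeR FDR under 0.05), where 13% of 16958 genes were called, 7.33% higher and 5.70% lower. Igfbp6 was lowered most, to 0.0216-fold (log2FC -5.53 ± 0.97, SE, FDR 0.00593). Its level was 932, 805, 113 and 591 FPM in WT VSMC sets 1 to 4, and in 9 EC libraries it ranged from 0 to 32.8 FPM with a median of 11.3, so that the groups did not overlap. EC set 14 had 0 counts of Igfbp6 in Control, which allows up to 0.0700 FPM at 3 counts.

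Igfbp5, which binds to extracellular matrix, fell to 0.0351-fold (log2FC -4.83 ± 0.99, FDR 0.0105). It was at 35.5, 110, 5.17 and 529 FPM in WT VSMC and between 0.247 and 20.8 FPM in EC, with a median of 5.83, so that WT VSMC set 3 lay within the range of EC. Igfbp4 fell to 0.165-fold (log2FC -2.6 ± 0.65, FDR 0.0239), from 645, 582, 530 and 2135 FPM to between 36.0 and 647 FPM in EC, with a median of 92.8. EC set 17 alone reached the level of WT VSMC. Insr rose 1.77-fold (log2FC 0.83 ± 0.22, FDR 0.0305), from 24.6, 41.4, 52.8 and 56.9 FPM to between 65.9 and 103 FPM, without overlap. Without WT VSMC set 4, which had the most Igfbp4 and Igfbp5, FDR was 0.104 for Igfbp4 and 0.0600 for Igfbp5. Insr had an FDR of 0.0775, 0.0961 and 0.0536 without WT VSMC sets 1, 2 and 3. Of the markers, 3 of 8 fibroblast, 1 of 5 pericyte and 1 of 6 tested leukocyte markers were lower and 5 of 10 endothelial and 1 of 4 mesothelial markers higher in EC, and their part in these differences was not tested.

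Igf1 varied widely among EC. In Control it was at 13.7, 9.26, 7.98 and 13 FPM in WT VSMC sets 1 to 4 and between 6.07 and 775 FPM in EC, with a median of 44.5. EC sets 9 and 12 lay below all WT VSMC sets, set 13 just above them and the other 6 libraries higher. The log2FC of 3.56 ± 1.26 did not pass (FDR 0.0763). Without EC sets 9, 11 and 13, it was 4.14 ± 1.11 with an FDR of 0.0188, and Igf1r had a log2FC of 0.90 ± 0.21 with an FDR of 0.00914. Without these 3 sets, 6 members were called, the 4 above and these 2, where 30.8% of all genes were. DESeq2 called Igf1 (FDR 0.00678) and Igf1r (FDR 0.0317) with all sets.

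In some of these genes the sets of a group lay further apart than the stressors and Control did within sets. Over the KO VSMC sets, the mean of Igfbp2 over conditions reached from 22.1 FPM in set 8 to 2173 FPM in set 7, a 98.5-fold range, while its largest mean log2 ratio to Control under any stressor was 0.25. Igfbp5 spanned 64.1-fold in WT VSMC, from 6.41 FPM in set 3 to 411 FPM in set 4, and 25.2-fold in KO VSMC, from 2.13 FPM in set 8 to 53.7 FPM in set 5. Igfbp6 spanned 8.12-fold in WT VSMC, with set 3 lowest, and Igfbp4 10.1-fold in KO VSMC, with set 5 highest. The receptors were steady by comparison. Igf1r spanned 1.34-fold in WT VSMC, 1.44-fold in KO VSMC and 2.9-fold in EC, and Insr 1.65-fold, 1.65-fold and 1.85-fold.

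EC sets 17 and 18 show how far cultures of 1 animal can lie apart. In Control, Igf1 was at 775 FPM in set 17 and 73.6 FPM in set 18, Igfbp4 at 647 and 92.8, Igfbp2 at 101 and 4.11 and Igfbp5 at 20.8 and 1.38 FPM. Igfbp6, at 9.50 and 11.5 FPM, and Igf1r, at 232 and 337 FPM, were closer. The summed endothelial markers averaged 569 FPM in set 17 and 3803 FPM in set 18, and their part in these differences was not tested.

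**Figure D2:**
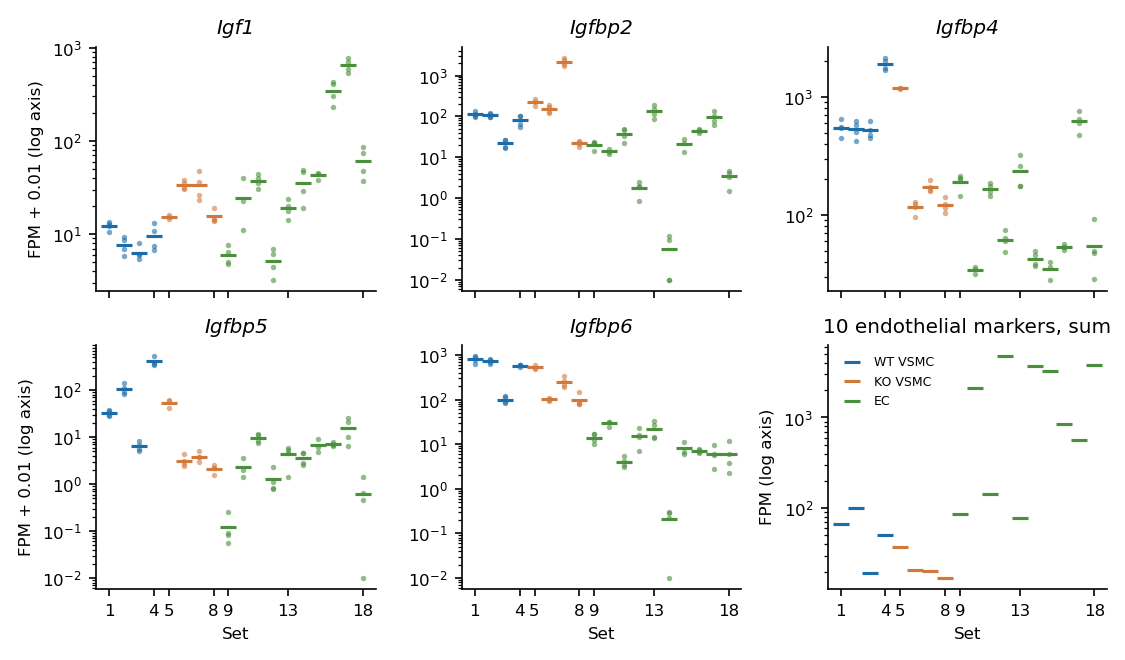
FPM plus 0.01 of 5 genes in each set (points are libraries of the 4 conditions, bars their mean) and the summed FPM of 10 endothelial markers, all on log axes. The libraries of a set lie close together while sets of a cell type spread widely, as for Igfbp2 in KO VSMC set 7 and Igf1 in EC sets 16 and 17.

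The position of the members on the genome gives 1 pair of neighbours. Igfbp2 (chr1:72863606-72891634, plus strand) and Igfbp5 (chr1:72897091-72914043, minus strand) lie 5456 bases apart with their 3' ends facing each other. Their highest sets were not the same, with Igfbp2 at its highest in WT VSMC set 1 and KO VSMC set 7, and Igfbp5 in WT VSMC set 4 and KO VSMC set 5. Of the exonic bases of Igfbp7, 13.7% overlap another gene on the opposite strand, and of those of Igf1r, 6.31%. Whether the counting used strand is not stated, and how reads in these overlaps were counted was not examined.

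In WT VSMC, ALL stressors lowered the ligand Igf1 and the binding protein Igfbp6 and raised the binding protein Igfbp2. These were 3 of 10 genes called, 1 higher and 2 lower, where 7.45% of 16905 genes were called, 3.92% higher and 3.53% lower. The median log2FC of the 10 was -0.13, against -0.01 over all genes tested. None of the 10 met the criteria of the study for a DEG (FDR under 0.05 in edgeR and DESeq2, |log2FC| of at least 0.64 and 3 FPM), which 2.22% of genes met under ALL.

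Igf1 (chr10:87693642-87772904, GRCm39, 9 merged exons) fell in each set under ALL. Control levels of 13.7, 9.26, 7.98 and 13 FPM stood against 10.5, 5.79, 5.44 and 7.53 FPM in sets 1 to 4. The 2 groups overlapped, but ALL was lower in 4 of 4 sets, at 0.581 to 0.769 of the Control of the same set. The fitted change was 0.659-fold (log2FC -0.60 ± 0.12, FDR 0.00600). It passed with any 1 of the sets left out, with FDR up to 0.0423.

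Igfbp2, which can act on cells through integrins as well as through IGF, rose 1.39-fold under ALL (log2FC 0.47 ± 0.12, FDR 0.0205). Its values were 97.7, 98.8, 16.4 and 54.8 FPM in Control and 103, 121, 26.0 and 99.8 FPM under ALL. All 4 sets were higher, with ratios from 1.06 in set 1 to 1.82 in set 4. Without set 3 or set 4, FDR was 0.121 and 0.195.

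Igfbp6 fell to 0.792-fold under ALL (log2FC -0.34 ± 0.10, FDR 0.0425). Control values of 932, 805, 113 and 591 FPM stood against 632, 680, 86.9 and 525 FPM, lower in 4 of 4 sets. This was the weakest of the 3 calls, since leaving out any 1 set gave FDR between 0.0776 and 0.186.

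Under HG + FFA and under AII + NA alone, no member was called in WT VSMC by edgeR, where 0.538% and 0.0532% of all genes were (0.319% and 0.0473% higher, 0.219% and 0.00592% lower). Unadjusted p was under 0.05 for 2 members in each comparison, a looser cut for which the share of all genes is not given here. Under HG + FFA, DESeq2 called none. Under AII + NA, DESeq2 called Igf1 (FDR 0.0418) and Igfbp2 (FDR 0.00194). In that comparison, Igfbp2 was higher in 4 of 4 sets, with 134, 113, 27.0 and 101 FPM, and Igf1 was lower in 4 of 4 sets, with 12.1, 6.95, 5.95 and 6.80 FPM.

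**Figure D3:**
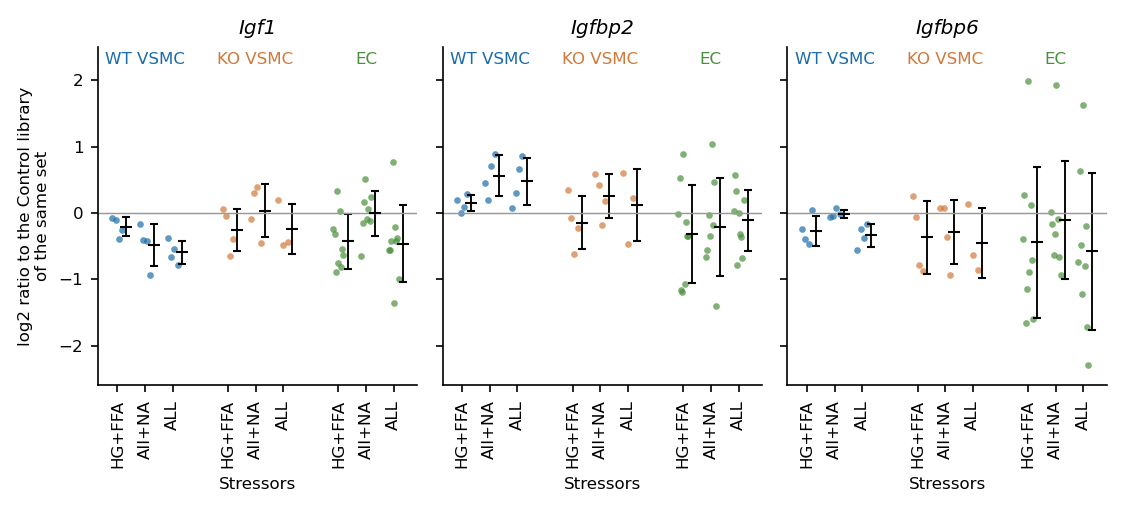
log2 ratio of Igf1, Igfbp2 and Igfbp6 to Control within each set, with 0.1 FPM added. Points are sets, and black bars are the mean ± SD (3 or 4 sets in VSMC, 8 or 9 in EC). In WT VSMC, Igf1 lies below 0 and Igfbp2 above 0 in every set and condition.

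The 2 × 2 layout allows each stressor pair to be averaged over the presence of the other. In WT VSMC the effect of the hormones, AII + NA with and without HG + FFA, was called for 2 members, where 3.41% of genes were called, 2.41% higher and 1.01% lower. Igfbp2 rose (log2 0.45 ± 0.08, FDR 0.00909) and Igf1 fell (log2 -0.43 ± 0.08, FDR 0.0108), each in 4 of 4 sets. Without set 4, FDR was 0.161 for Igfbp2 and 0.198 for Igf1. Without set 3 it was 0.0629 for Igfbp2, and without set 2 it was 0.0724 for Igf1.

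The metabolic effect, HG + FFA with and without AII + NA, was called for Igfbp6 alone, where 6.77% of genes were called, 3.44% higher and 3.33% lower. Igfbp6 fell by 0.29 on the log2 scale (SE 0.07, FDR 0.0159), in 4 of 4 sets. Without set 1 or set 3, FDR was 0.0858 and 0.156. Igf1 had a metabolic log2 effect of -0.17 ± 0.08 (FDR 0.259), Insr one of 0.25 ± 0.08 (FDR 0.0755) and Igfbp3, the main carrier of IGF in plasma, one of 0.24 ± 0.08 (FDR 0.0704). Igfbp2 and Igfbp6 thus passed for different stressors. DESeq2 also called Igfbp3 (FDR 0.0463). The difference between the 2 averaged effects was not tested. No member departed from additivity in edgeR or DESeq2 in any cell group, where edgeR called 0% of genes. Unadjusted p was under 0.05 for 0, 2 and 3 members in WT VSMC, KO VSMC and EC. The share of all genes at that looser cut is not given.

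Markers of other cells moved in the same libraries. Under ALL in WT VSMC, 2 of 8 smooth muscle, 1 of 10 endothelial and 1 of 2 tested cardiomyocyte markers were higher. Lower were 3 of 8 fibroblast, 2 of 10 endothelial and 2 of 5 pericyte markers. The summed fibroblast markers ranged from 2043 to 5033 FPM in Control and from 1461 to 4317 FPM under ALL, and the summed smooth muscle markers from 381 to 1212 and from 1121 to 1591 FPM. For the metabolic effect, 4 of 8 fibroblast and 1 of 6 tested leukocyte markers were lower. For the hormonal effect, 5 of 8 smooth muscle, 2 of 10 endothelial and 1 of 2 tested cardiomyocyte markers were higher. Lower for the hormonal effect were 2 of 8 fibroblast, 1 of 10 endothelial and 1 of 5 pericyte markers. Their part in the changes of Igf1, Igfbp2 and Igfbp6 was not tested.

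Of the remaining members in WT VSMC, none was called in any stressor comparison. Under ALL, Irs1 had a log2FC of -0.46 ± 0.19 (FDR 0.172), with 5.55, 17.2, 15.8 and 14 FPM in Control and 6.23, 10.8, 9.90 and 9.44 FPM under ALL. Igfbp4 had a log2FC of -0.31 ± 0.12 (FDR 0.147) and was lower in 4 of 4 sets. Igf1r had -0.18 ± 0.09, Igfbp3 0.16 ± 0.11, Insr 0.13 ± 0.11, Igfbp5 -0.08 ± 0.17 and Igfbp7 0.02 ± 0.09, with the smallest FDR of these at 0.292. Igfbp7, although among the most abundant, lay between 1445 and 2525 FPM in Control and between 1639 and 2269 FPM under ALL.

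In KO VSMC no member was called by edgeR or DESeq2 under HG + FFA, AII + NA or ALL, nor for the averaged effects, where edgeR called 0.439%, 0% and 0.399% of 17538 genes for the 3 stressor groups (0.336%, 0% and 0.279% higher, 0.103%, 0% and 0.120% lower) and 2.18% (1.12% higher, 1.06% lower) and 0% for the metabolic and hormonal effects. Unadjusted p was under 0.05 for 2, 2 and 1 members in the stressor groups and for 3 and 1 in the averaged effects. The share of all genes at that looser cut is not given, so these counts are no result about the members. Igf1 had a log2FC of -0.22 ± 0.19 under ALL (FDR 0.699). Its levels were 31.1, 36.7 and 19.3 FPM in Control of sets 6 to 8 and 35.7, 26.1 and 14.2 FPM under ALL, higher in set 6 and lower in sets 7 and 8. Igfbp2 stood at 129, 2674 and 21.3 FPM in Control and at 194, 1928 and 24.8 FPM under ALL (log2FC 0.20 ± 0.16, FDR 0.672). Igfbp6 stood at 98.0, 337 and 149 FPM in Control and at 108, 217 and 81.8 FPM under ALL (log2FC -0.37 ± 0.18, FDR 0.498). Without KO VSMC set 5, the set with remaining Egfr RNA, edgeR called 2 members under HG + FFA, Igfbp6 (log2FC -0.60 ± 0.16, FDR 0.0357) and Insr (0.51 ± 0.14, FDR 0.0402), where 8.57% of all genes were called.

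The stressor effects of KO VSMC and WT VSMC were compared directly, and no member differed between genotypes under any of the 3 stressor groups in edgeR or DESeq2. Over all 18339 genes edgeR called 0%, 0% and 0.0109% for HG + FFA, AII + NA and ALL. Unadjusted p was under 0.05 for 2 members under AII + NA and for none under the others, with no share of all genes given at that cut. The estimate for Igf1 under ALL was 0.38 ± 0.23 on the log2 scale, higher in KO VSMC, with an FDR of 0.735. Under AII + NA it was 0.53 ± 0.22 for Igf1 (FDR 0.396), -0.34 ± 0.20 for Igfbp2 (FDR 0.464) and 0.71 ± 0.40 for Irs1 (FDR 0.456). These tests do not show that the genotypes respond alike.

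Control levels of KO VSMC and WT VSMC were not called different for any member by edgeR, where 0.00622% of 16089 genes were. Unadjusted p was under 0.05 for 3 members, a looser cut for which the share of all genes is not given. Igf1 was at 15.4, 31.1, 36.7 and 19.3 FPM in KO VSMC and at 7.98 to 13.7 FPM in WT VSMC, without overlap (log2FC 1.21 ± 0.31, FDR 0.299). Igfbp3 was at 189, 138, 139 and 85.6 FPM in KO VSMC and at 74.6, 50.5, 29.5 and 84.1 FPM in WT VSMC, also without overlap (log2FC 1.20 ± 0.34, FDR 0.328). DESeq2 called both, with FDR 0.0200 for Igf1 and 0.0401 for Igfbp3. Igfbp2, with a log2FC of 3.48 ± 1.32, rested on set 7. Without KO VSMC set 5, edgeR called Igf1 (log2FC 1.39 ± 0.27, FDR 0.0447) and Igfbp4 (-2.75 ± 0.58, FDR 0.0486), where 2.41% of all genes were called. The summed fibroblast markers ranged from 276 to 2098 FPM in KO VSMC and from 2043 to 5033 FPM in WT VSMC, and their part in these levels was not tested.

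**Figure D4:**
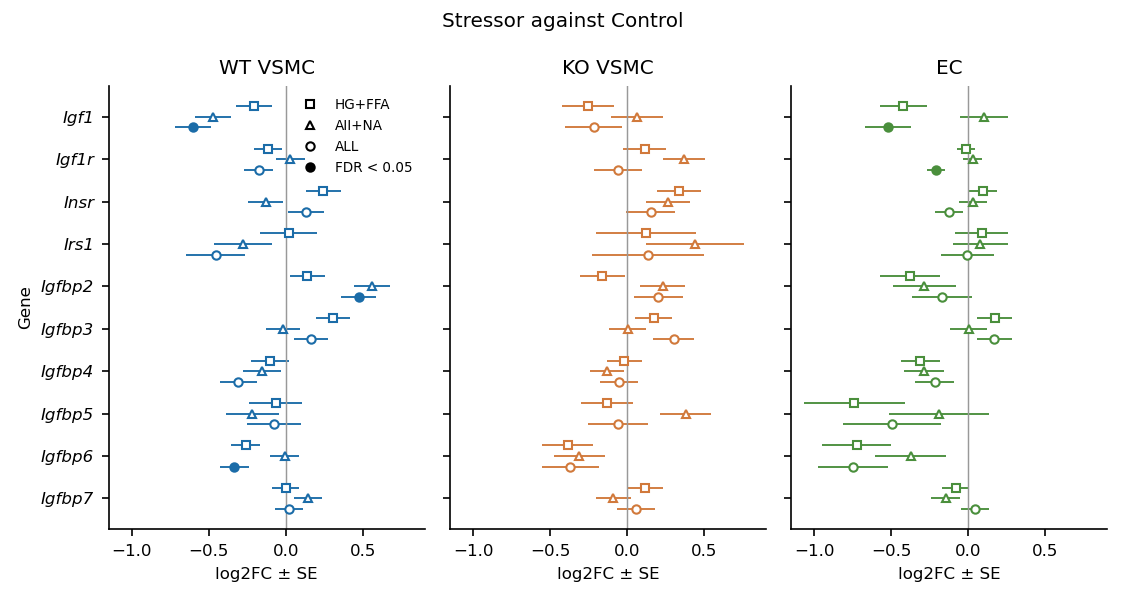
Fitted log2FC ± SE of each member against Control, by edgeR with the set as a block, in WT VSMC, KO VSMC and EC. Squares stand for HG + FFA, triangles for AII + NA and circles for ALL, and filled symbols have an FDR under 0.05. Filled symbols occur under ALL only, for Igf1, Igfbp2 and Igfbp6 in WT VSMC and for Igf1 and Igf1r in EC.

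In EC, Igf1 and its receptor Igf1r were called lower under ALL stressors. These were 2 of 10 members, both lower, where 3.18% of 17148 genes were called, 2.04% lower and 1.14% higher. The median log2FC of the 10 was -0.19, against -0.01 over all genes. With the mouse in place of the set as the block, which joins sets 17 and 18, neither was called (FDR 0.727 for Igf1 and 0.305 for Igf1r), where 0.781% of genes were. No member met the DEG criteria, which 0.636% of genes met.

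Igf1 fell to 0.696-fold in EC under ALL (log2FC -0.52 ± 0.15, FDR 0.0471). It ranged from 6.07 to 775 FPM in 9 Control libraries (median 44.5) and from 4.48 to 594 FPM in 10 ALL libraries (median 27.2), so that the ranges overlapped. Within sets it was lower in 8 of 9, at 0.390 to 0.868 of Control, and higher in set 13, at 1.69. Set 13 is among the 3 sets with few endothelial markers. Without those 3 sets Igf1 was lower in 6 of 6 sets, with a log2FC of -0.69 ± 0.15 (FDR 0.0154). Of 10 fits that each left out a single set, 1 kept the call, and FDR rose as far as 0.175. Without EC sets 15 and 16, FDR was 0.0918.

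Igf1r fell to 0.866-fold (log2FC -0.21 ± 0.06, FDR 0.0471), from between 121 and 362 FPM (median 232) to between 127 and 372 FPM (median 222), lower in 7 of 9 sets. Without EC sets 9, 11 and 13, FDR was 0.148. With a single set left out the call was kept in 2 of 10 fits, and FDR rose as far as 0.155. Igfbp6 had the largest log2FC of the 10 members under ALL, -0.75 ± 0.23, with an FDR of 0.0618 and a DESeq2 FDR of 0.0275.

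The averaged metabolic effect in EC was called for Igf1 and Igfbp6, both lower, where 8.60% of genes were called, 5.13% lower and 3.47% higher. Igf1 fell by 0.52 on the log2 scale (SE 0.11, FDR 0.00110), in 7 of the 8 sets with all 4 libraries. With a single set left out the FDR stayed at or under 0.00745, and without EC sets 9, 11 and 13 the effect was -0.71 ± 0.11 (FDR 0.000141). Igfbp6 fell by 0.55 (SE 0.16, FDR 0.0255), in 5 of 8 sets, at levels between 0 and 32.8 FPM in Control and between 0.296 and 24.6 FPM under HG + FFA. Its FDR was 0.0953 without EC sets 9, 11 and 13. With a single set left out the call was kept in 5 of 10 fits, and FDR rose as far as 0.111. With the animal in place of the set as the block, which joins sets 17 and 18, FDR was 0.476 for Igf1 and 0.0884 for Igfbp6. DESeq2 called both and also Igf1r (FDR 0.0284).

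No member of the family was called under AII + NA or for the averaged hormonal effect by edgeR or DESeq2, where edgeR called 0% of genes in either. Unadjusted p was under 0.05 for 1 and 0 members, a looser cut for which the share of all genes is not given. Igf1 had a hormonal log2 effect of 0.00 ± 0.11 and Igfbp2 one of -0.04 ± 0.14. Under HG + FFA, where 3.53% of genes were called (1.64% higher, 1.88% lower), edgeR called no member and DESeq2 called Igfbp6 (FDR 0.0370). Unadjusted p was under 0.05 for 4 members there, again with no share of all genes given at that cut. Igfbp6 had an edgeR log2FC of -0.72 ± 0.22 (FDR 0.0662) and Igf1 one of -0.42 ± 0.15 (FDR 0.119).

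**Figure D5:**
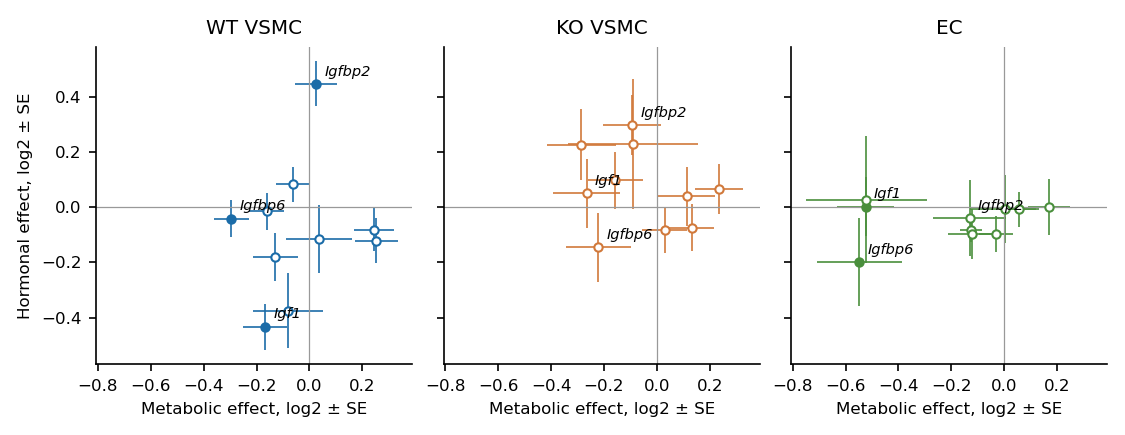
Averaged metabolic effect (x axis) and hormonal effect (y axis) of each member, log2 ± SE, in WT VSMC, KO VSMC and EC. Filled symbols have an FDR under 0.05 on either axis. Igf1 lies low on the hormonal axis in WT VSMC (-0.43) and far left on the metabolic axis in EC (-0.52).

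Igf1 was thus called for the hormonal effect in WT VSMC and for the metabolic effect in EC, but the stressor effects of the cell types were not shown to differ. In the direct comparison of EC with WT VSMC, no member was called by edgeR or DESeq2 under HG + FFA, AII + NA or ALL, where edgeR called 0%, 0.0465% and 0.511% of 19362 genes. Unadjusted p was under 0.05 for 0, 2 and 1 members, with no share of all genes given at that looser cut. For AII + NA, the difference of EC minus WT VSMC was 0.58 ± 0.26 for Igf1 (FDR 0.711) and -0.84 ± 0.30 for Igfbp2 (FDR 0.492).

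In EC, too, fibroblast markers moved with the metabolic stressors. Of 8 fibroblast markers 4 were lower for the averaged metabolic effect, together with 1 of 5 pericyte markers, while 1 of 10 endothelial and 1 of 4 mesothelial markers were higher and 2 endothelial markers lower. Under ALL, 1 of 8 fibroblast and 1 of 10 endothelial markers were lower, and 1 endothelial and 1 of 4 mesothelial markers higher. The summed fibroblast markers ranged from 316 to 3852 FPM in Control and from 297 to 4812 FPM under ALL. Their part in the lower Igf1, Igf1r and Igfbp6 was not tested.

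Beyond the 10 members, 57 further genes of the pathway were examined, of which 50 were tested in WT VSMC and KO VSMC and 48 in EC. They cover other ligands and receptors, IGFBP proteases and their inhibitors, adaptors, PI3 kinase and AKT, mTOR, inhibitors of the receptors, FOXO factors and glucose handling. Under ALL in WT VSMC, 3 of 50 were lower and none higher, with a median log2FC of -0.05. This share of 6.00% was close to the 7.45% of all genes. Foxo1, a transcription factor restrained by AKT, fell by 0.50 on the log2 scale (SE 0.11, FDR 0.0101). Socs2, an inhibitor of growth hormone signalling, fell by 0.44 (SE 0.10, FDR 0.0159). Htra1, a secreted protease that cleaves IGF binding proteins, fell by 0.32 (SE 0.08, FDR 0.0172).

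The averaged hormonal effect in WT VSMC was called for 1 of 50 pathway genes (2.00%, against 3.41% of all genes). Igf2r, which carries IGF-2 to the lysosome, fell by 0.41 on the log2 scale (SE 0.10, FDR 0.0286), from a median of 446 FPM in Control to 299 FPM under AII + NA and 281 FPM under ALL. The metabolic effect was called for 2 (4.00%, against 6.77% of all genes), both lower, Htra1 at -0.20 ± 0.05 (FDR 0.0356) and the insulin-responsive glucose transporter Slc2a4 at -1.03 ± 0.26 (FDR 0.0289). Slc2a4 was close to the detection limit, at 0.309 to 1.08 FPM in Control. In KO VSMC, Socs2 was the 1 pathway gene called, and fell by 0.62 for the metabolic effect (SE 0.12, FDR 0.00942). It made up 2.00% of the pathway genes, where 2.18% of all genes were called.

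In EC the averaged metabolic effect was called for 5 of 48 pathway genes, 1 higher and 4 lower, a share of 10.4% near the 8.60% of all genes. Htra1 had the smallest FDR and fell by 0.36 (SE 0.06, FDR 8.97e-05), from a median of 133 FPM in Control to 125 FPM under HG + FFA and 114 FPM under ALL. It was also lower under HG + FFA (log2FC -0.47 ± 0.08) and ALL (log2FC -0.48 ± 0.08). Foxo1 fell by 0.24 (SE 0.05, FDR 0.00141), Grb14, an inhibitory adaptor of the insulin receptor, by 0.29 (SE 0.08, FDR 0.0210) and Stc2, a stanniocalcin that blocks the IGFBP protease PAPP-A, by 0.41 (SE 0.10, FDR 0.00915). Pik3ca, a catalytic subunit of PI3 kinase, rose by 0.15 (SE 0.04, FDR 0.0182).

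Of the same pathway, 8 of 50 genes differed between Control EC and WT VSMC, 4 higher and 4 lower. This was 16% of them, near the 13% of all genes. Akt2, a kinase of insulin signalling, was lower in EC (log2FC -1.20 ± 0.25, FDR 0.0111). Pik3r2, a regulatory subunit of PI3 kinase, was lower (-0.81 ± 0.24) and Pdpk1, the kinase that activates AKT, higher (0.60 ± 0.18). Socs1 was lower (-1.79 ± 0.38), and Tbc1d4, a substrate of AKT in glucose uptake, was higher (1.81 ± 0.47). No pathway gene was called for a difference in stressor effects between genotypes or cell types.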

How the data were processed

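Poly(A) RNA-Seq reads were aligned by the authors to mm39 with HISAT2 2.1.0 and assigned to genes with featureCounts, counting multiply aligned reads over exons. The deposited values are raw counts per gene and library, without normalization. Whether strand was used is not given in the sources used here. Gene symbols and positions came from the GENCODE annotation of GRCm39, which held 56310 of the 56953 identifiers, with 0.0241% of counts on the others.

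Quasi-likelihood models were fitted with edgeR 4.0.16 (R 4.3.3) per cell type on all 4 conditions, with TMM, filterByExpr and the set as a block, and differences of stressor effects in joint models of both cell groups. Levels between genotypes or cell types were compared on Control libraries, with EC sets 17 and 18 summed as 1 animal. FDR is the Benjamini-Hochberg value over all genes tested. Counts of members with an unadjusted p under 0.05 are given without the share of all genes at that cut. They cannot be set against the shares called by FDR. DESeq2 1.42.0 was the second tool, with an adjusted p left as NA where it gave none. An averaged effect is the mean of the contrasts with and without the other stressor pair, and departure from additivity is ALL minus both single effects. FPM of single libraries were put on the log2 scale with a pseudocount of 0.1. The models were also run on counts simulated from the fitted models, with changes larger than the stressor effects called in members. Because these counts follow the model, the run cannot show whether the model suits the data. No libraries of a group were duplicates, since the smallest chi-square per gene was 41.6.

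The set numbers in the titles pair the libraries of an animal and passage. Some mice gave both VSMC and EC (sets 1 and 9, 2 and 10), but only the mouse of sets 1 and 9 had both Control libraries, so that levels were not paired. Deviations from the condition means correlated between libraries of a set by at least 0.495 (WT VSMC), 0.668 (KO VSMC) and 0.703 (EC), over genes of at least 3 FPM.

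All 10 members are named throughout, other pathway genes where FDR was under 0.05 (at most 6 per comparison by smallest p, of which 1 is not reported here), and Egfr as the targeted gene. The members and gene lists were chosen with earlier results of these data known. EC sets 9, 11 and 13 (under 200 FPM of endothelial markers) were left out as an alternative chosen after seeing the data. Plots used matplotlib 3.10.9 in Python 3.11.15.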

Additional observations from a re-analysis of the deposited data

Results flagged for a closer look

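Of 110 groups of 4 to 10 libraries, 1 per member, cell type and condition, 28 held a library whose gap to its nearest neighbour took up an unusually large share of the range of the group. Chance alone flags about 1 in 20 groups only where values are normally distributed, which was not tested for these FPM. The libraries of a set are also not independent, so that the 28 groups cannot be set against this rate. Most of these libraries belonged to a few sets.

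EC set 17 stood highest for 3 genes. Igf1 was at 529.7 FPM under HG + FFA and 594 FPM under ALL. Igfbp4 was at 647, 600.2, 757 and 479 FPM in Control, HG + FFA, AII + NA and ALL, and Igfbp5 at 20.8 FPM in Control and 25.3 FPM under AII + NA. EC set 13 was highest for Igfbp3 in Control with 666 FPM and for Irs1 under AII + NA with 34.2 FPM. EC set 9 was highest for Insr under HG + FFA with 113 FPM and under AII + NA with 124 FPM, and EC set 10 for Igfbp6 under ALL with 31.7 FPM.

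KO VSMC set 7 was highest for Igfbp2, with 2674 FPM in Control, 1733 FPM under HG + FFA and 2359 FPM under AII + NA. KO VSMC set 5, the set that kept Egfr RNA, was highest for Igfbp4 with 1189, 1191 and 1169 FPM and for Igfbp5 with 60.5, 41.1 and 59.7 FPM in Control, HG + FFA and AII + NA. WT VSMC set 4 was highest for Igfbp4 with 2135, 2024, 1752 and 1689 FPM in Control, HG + FFA, AII + NA and ALL. Under AII + NA, WT VSMC set 1 was highest for Igf1 with 12.1 FPM and lowest for Igf1r with 122 FPM.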

How the results depend on the processing

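No member changed sign where it was called by either fit. The number of members called depended on the settings as follows, and the cause was not tested. The share of all genes called also differed between settings and is given here only for some. A count without that share describes the fit and is no result about the members. Without the set as replicate block, so without pairing, 0 were called for WT VSMC under ALL, its metabolic effect and its hormonal effect, and 0 for EC under ALL and its metabolic effect. With the animal as replicate block in EC, 0 were called under ALL and 0 for the metabolic effect, where 0.781% and 4.07% of genes were. Without a count filter, 2 were called for WT VSMC under AII + NA, 5 under ALL, 3 for its metabolic effect, 1 for KO VSMC and 5 for EC under HG + FFA, 1 for the genotype difference under AII + NA, and 2 and 1 for the cell type differences under AII + NA and ALL. DESeq2 called 2 for WT VSMC under AII + NA, 2 for its metabolic effect, 1 for EC under HG + FFA and 2 for KO against WT VSMC in Control. With only the 2 conditions compared, 1 was called for WT VSMC under AII + NA and 1 under ALL. For EC under ALL, 1 was called with DESeq2 size factors, 1 without EC sets 15 and 16 and 1 without EC sets 9, 11 and 13, which also left 1 for the metabolic effect. Without EC sets 9, 11 and 13, 1.91% of genes were called under ALL and 7.17% for the metabolic effect. Without EC sets 15 and 16, 2 differed between EC and WT VSMC. With a single set left out, calls ranged from 1 to 2 (WT VSMC ALL), 0 to 2 (its metabolic effect), 0 to 3 (its hormonal effect), 0 to 2 (KO VSMC HG + FFA), 0 to 1 (EC HG + FFA), 0 to 2 (EC ALL), 1 to 3 (EC metabolic effect), 0 to 2 (KO against WT VSMC in Control) and 2 to 5 (EC against WT VSMC in Control). No paired analysis was possible because no mouse (genotypes) or 1 mouse (cell types) had Control libraries on both sides of the level comparisons. Precision is limited by 3 or 4 sets per VSMC group, and counting error only is covered by the limit given for counts of 0.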
